A study of Homo sapiens with 3 samples.

Results

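The proteasome subunit genes were taken as all gene symbols of the form PSMA to PSMG followed by a number, which gave 48 of the 31113 symbols in the deposited gene lists. They comprise 19 genes of the core particle (PSMA and PSMB), 20 of the regulatory particle and its assembly factors (PSMC and PSMD), 4 activators (PSME), 1 inhibitor (PSMF1) and 4 assembly factors of the core (PSMG). Of the 48 genes, 44 reached 10 counts per 1000000 counts of the library (CPM) in at least 1 library and are called measured here. PSMA6, PSMB9, PSMB10 and PSMB11 did not.

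The proteasome degrades proteins that carry ubiquitin chains. Its core particle is a barrel of stacked rings in which alpha subunits gate the entry and certain beta subunits hold the proteolytic sites. The regulatory particle caps the barrel, where ATPases unfold the substrate and other subunits bind the ubiquitin chain and cut it off. Inducible beta subunits replace the constitutive catalytic ones in immune cells and under interferon, and the PSME activators open the barrel without the regulatory particle. Pluripotent stem cells are known for high proteasome activity.

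The cells were of H9, an established human embryonic stem cell line, grown in mTeSR medium and differentiated with the STEMdiff SMADi Neural Induction Kit towards neural progenitor cells. Single cells were barcoded in droplets by inDrop with the TruDrop protocol, and a unique molecular identifier (UMI) marks each captured RNA molecule. The 3 libraries are labelled day 0 (human embryonic stem cells), day 2 and day 6 (both differentiated cells or neural progenitors), with 1 library per day. The sample titles also carry a letter, A for days 0 and 6 and B for day 2, which the labels do not explain, so that what it stands for and the difference of labelled day 2 from the others cannot be told apart. With 1 library each, no difference between days could be tested against replicates. All intervals given are 95% intervals that cover counting error only.

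After filtering, 2290, 2419 and 4180 cells with 28341741, 20626135 and 41268018 UMIs remained in the libraries labelled day 0, 2 and 6, with median UMIs per cell of 8770, 3814 and 4429. Cells of different libraries shared 38 to 82 barcodes per pair. The marker content went against the day labels. POU5F1, the pluripotency factor OCT4, had 2.22, 1229 and 268 CPM in the libraries labelled day 0, 2 and 6, and PAX6, a neural progenitor factor, had 175.5, 6.64 and 27.9 CPM. In labelled day 2 all 10 listed pluripotency markers were above their level in labelled day 0, and the 10 neural progenitor markers summed to 48.0 CPM in labelled day 2 and 590 CPM in labelled day 0. The libraries are therefore called by their labels throughout, and no difference is given as a change over time. The defining markers of mesoderm, endoderm, trophectoderm and immune cells were near 0, with summed levels of at most 1.91 CPM per list in any library. The 4 fibroblast markers summed to 106, 49.2 and 189 CPM.

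The proteasome genes together held a similar share of the RNA in all 3 libraries. They summed to 140328, 113494 and 213659 UMIs, which is 4951, 5502 and 5177 CPM in the libraries labelled day 0, 2 and 6, or 0.495%, 0.55% and 0.518% of all UMIs. The sum was highest in the library labelled day 2, at 1.11 times (1.10 to 1.12) the sum in labelled day 0. Most single genes stayed close together as well: in 32 of the 44 measured genes the highest library was under 1.5 times the lowest, against 39.5% of all 10574 genes with at least 10 CPM. The spread reached 2-fold in 3 genes, against 30.9% of all genes, and these were PSMB8, PSME1 and PSMG4. The library labelled day 2 was the highest for 21 of the 44 genes, against 29.2% of all genes, and the library labelled day 0 was the lowest for 25, against 40.0%.

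**Figure D1:**
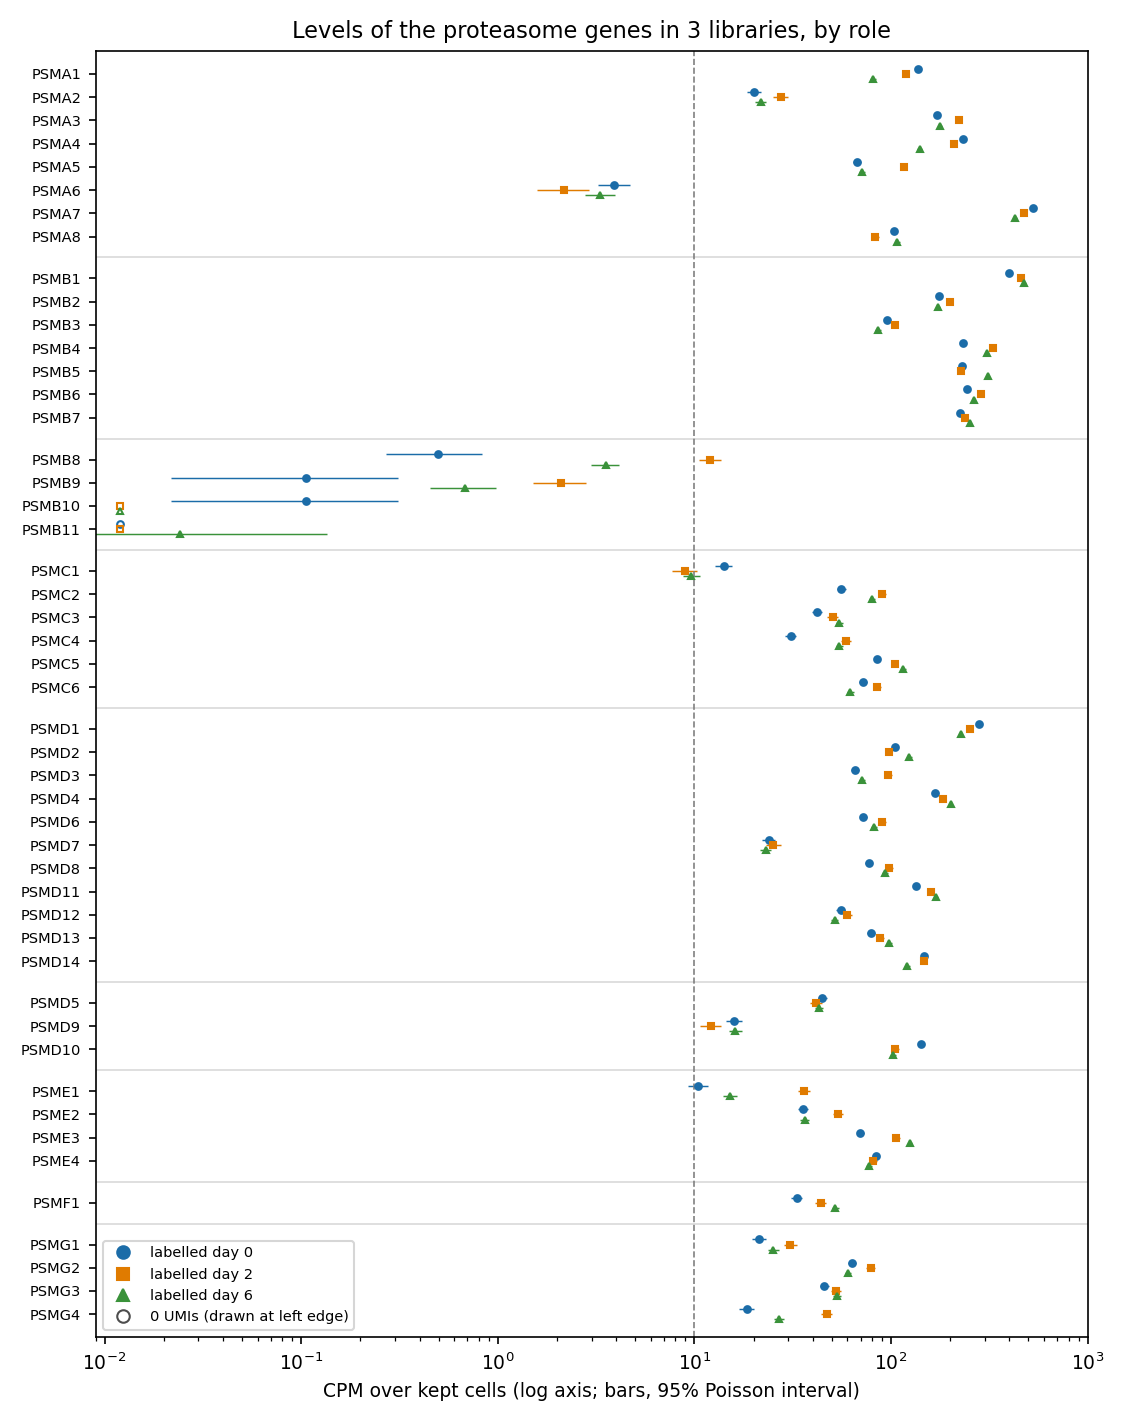
Levels of all 48 proteasome genes in CPM over the kept cells (log axis) in the libraries labelled day 0, 2 and 6, ordered by role, with exact Poisson 95% intervals and a dashed line at 10 CPM; open symbols at the left edge stand for 0 UMIs. For most genes the 3 symbols nearly coincide, whereas PSMB8 spans from 0.494 to 12.02 CPM.

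The alpha subunits, which form the outer rings of the core, had a summed level of 1261, 1257 and 1032 CPM in the libraries labelled day 0, 2 and 6. Of the 7 genes with a measured level, 3 were higher in labelled day 2 than in labelled day 0, against 50.5% of all genes, and 1 was higher in labelled day 6 than in labelled day 2, against 58.7%. PSMA5 had 67.1, 116 and 71.3 CPM and was thus high in labelled day 2 alone, at 1.73 times (1.63 to 1.84) the level in labelled day 0. PSMA1 had 137, 119 and 80.8 CPM, and PSMA4 had 233, 210 and 140 CPM. For both genes the library labelled day 6 was the lowest, at 0.589 (0.562 to 0.617) and 0.599 (0.579 to 0.621) times labelled day 0. When CPM were computed per cell and then averaged, these log2 ratios were -0.58 and -0.54, short of the 1.5-fold mark. PSMA7, the constitutive subunit of the alpha ring that PSMA8 replaces in male germ cells, had 525, 477 and 430 CPM. PSMA8 itself, known as the testis subunit, was clearly detected in all 3 libraries, with 104, 82.9 and 108 CPM and a UMI in 54.5%, 33.9% and 46.6% of cells. No part of its annotated exons overlaps another gene, and none of its 3' end sequences of 50 bases occurs in another annotated gene. PSMA6 was near the bottom of the measurable range at 3.92, 2.18 and 3.32 CPM, and 58.2% of the 50-base sequences at its 3' ends also occur in other annotated genes.

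The constitutive beta subunits summed to 1598, 1844 and 1870 CPM, lowest in labelled day 0. Of these 7 genes, 6 were higher in labelled day 2 than in labelled day 0, against 50.5% of all genes. In labelled day 6, 3 were higher than in labelled day 2, against 58.7% of all genes. PSMB4, a structural subunit, had 233, 330 and 307 CPM. The 3 catalytic subunits PSMB5, PSMB6 and PSMB7 carry the chymotrypsin-like, caspase-like and trypsin-like sites. PSMB5 had 229, 227 and 311 CPM, and was high in labelled day 6 alone, at 1.37 times (1.33 to 1.42) labelled day 2. PSMB6 had 243, 286 and 264 CPM, and PSMB7 had 223, 237 and 251.5 CPM. Both stayed well within 1.5-fold across the libraries.

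Of the inducible beta subunits, PSMB8 alone was measured, and it was highest in labelled day 2. PSMB8, which takes the place of PSMB5 in the immunoproteasome, had 14, 248 and 146 UMIs, or 0.494, 12.02 and 3.54 CPM, in the libraries labelled day 0, 2 and 6. The level in labelled day 2 was 24.3 times (14.2 to 45.2) that in labelled day 0, and labelled day 6 had 0.294 times (0.238 to 0.362) the level of labelled day 2. PSMB8 passed the 10 CPM minimum through the library labelled day 2 alone, so it could only enter as a gene that differs. Among cells with at most 10% mitochondrial UMIs the ratio of day 2 over day 0 was 60.7. It rests on at most the 14 UMIs of labelled day 0, and no interval was computed for it. The direction of the ratio was the same in all 11 alternatives, but those that change only the CPM minimum could not alter it. A UMI of PSMB8 was found in 0.48%, 8.72% and 3.13% of cells of the libraries labelled day 0, 2 and 6. After thinning every cell to 1000 UMIs these shares were 0.0873%, 1.78% and 0.622%. PTPRC, a blood cell gene, gave thinned shares of 0.0827% in labelled day 2 and 0.0437% in labelled day 0, so the share of PSMB8 stood above that level in labelled day 2. PSMB9, which takes the place of PSMB6, had 3, 43 and 28 UMIs. Its levels of 0.106, 2.08 and 0.678 CPM ran in the same order as those of PSMB8, below the 10 CPM minimum in every library. PSMB10, which takes the place of PSMB7, had 3 UMIs in labelled day 0 and 0 in the other libraries, where 3 UMIs would be 0.145 CPM in labelled day 2 and 0.0727 CPM in labelled day 6. Of the 50-base sequences at its 3' ends, 77.4% also occur in another annotated gene, AC040162.1. PSMB11, the thymus subunit, had 1 UMI in labelled day 6 and 0 elsewhere.

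The genes of the interferon-inducible activator were also highest in labelled day 2. PSME1 and PSME2 encode the subunits of a mixed ring. PSME1 had 10.5, 36.2 and 15.2 CPM in the libraries labelled day 0, 2 and 6, and PSME2 had 35.7, 54.0 and 36.4 CPM. In labelled day 2 PSME1 was 3.46 times (3.02 to 3.97) and PSME2 1.51 times (1.39 to 1.65) as high as in labelled day 0. For PSME2 labelled day 6 did not differ from labelled day 0 beyond counting error, at 1.02 times (0.939 to 1.10). The day 2 over day 0 ratio of PSME2 fell short of 1.5-fold under 5 of the alternatives, the lowest being 1.43. PSMG4, which pairs with PSMG3 in an assembly factor of the alpha ring, had 18.4, 47.0 and 27.1 CPM and a ratio of 2.55 (2.29 to 2.85). It too was highest in labelled day 2 and lowest in labelled day 0.

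RefSeq promoter windows, from 250 bases before to 50 after the gene start, were matched by symbol for 42 of the 48 genes, in 51 windows. They were searched on both strands for GAAANNGAAA, the core of the interferon-stimulated response element. It occurs in windows of 7 of these genes (PSMA4, PSMB4, PSMB8, PSMB10, PSME1, PSME2 and PSMG4) and in 3.57% of all 35116 windows. The 10 letters GAAAGCGAAA, searched after the matches had been seen, occur in 35 of all windows, or 0.0997%, and in those of PSMB8, PSMB10, PSME1, PSME2 and PSMG4. The windows of the 3 genes whose levels spanned 2-fold, and of PSME2, are printed here because all 4 hold these letters near the start. They lie in GRCh38.p14 at chr6:32843998-32844297 on the minus strand (PSMB8), chr14:24135944-24136243 on the plus strand (PSME1), chr14:24146561-24146860 on the minus strand (PSME2) and chr6:3258697-3258996 on the plus strand (PSMG4). Each is written 5' to 3' on the strand of its gene, and capitals mark the match, which begins 4 bases before the start in PSMB8, 5 bases after it in PSME1, 28 before it in PSME2 and 33 before it in PSMG4. In PSMB8 and PSME1 the letters stand on the other strand.
PSMB8: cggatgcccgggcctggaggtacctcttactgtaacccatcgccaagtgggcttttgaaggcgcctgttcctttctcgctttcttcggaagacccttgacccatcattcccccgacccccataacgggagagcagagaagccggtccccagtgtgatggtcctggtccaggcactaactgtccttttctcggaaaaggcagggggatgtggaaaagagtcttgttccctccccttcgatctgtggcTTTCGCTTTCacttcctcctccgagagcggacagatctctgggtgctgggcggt
PSME1: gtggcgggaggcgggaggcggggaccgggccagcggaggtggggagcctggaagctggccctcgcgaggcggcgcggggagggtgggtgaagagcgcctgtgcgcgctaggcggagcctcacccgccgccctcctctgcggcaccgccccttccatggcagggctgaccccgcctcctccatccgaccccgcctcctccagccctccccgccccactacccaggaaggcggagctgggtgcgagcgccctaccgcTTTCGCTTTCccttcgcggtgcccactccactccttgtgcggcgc
PSME2: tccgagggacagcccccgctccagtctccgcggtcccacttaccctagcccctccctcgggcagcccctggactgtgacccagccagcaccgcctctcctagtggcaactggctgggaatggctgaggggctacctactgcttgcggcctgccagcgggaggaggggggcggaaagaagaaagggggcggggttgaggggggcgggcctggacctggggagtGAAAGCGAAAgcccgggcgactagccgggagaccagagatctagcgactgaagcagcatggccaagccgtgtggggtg
PSMG4: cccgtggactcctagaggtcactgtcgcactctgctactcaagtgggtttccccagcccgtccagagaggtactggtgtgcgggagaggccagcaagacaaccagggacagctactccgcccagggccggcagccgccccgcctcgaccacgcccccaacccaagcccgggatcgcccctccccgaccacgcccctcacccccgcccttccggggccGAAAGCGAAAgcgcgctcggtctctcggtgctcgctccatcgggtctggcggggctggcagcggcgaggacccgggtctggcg
These matches are letters in a window and not measured binding sites. PSMB10 holds the same letters and was near 0 in every library, and the second RefSeq window of PSMB8 does not hold them. The antioxidant response element core TGACNNNGC was found for 15 proteasome genes, in 13.3% of all windows, and the CCAAT box for 20, in 34.6% of all windows. CCGGAAGT, an ETS factor motif, was found for 10, in 4.14% of all windows. PSMB8 and PSMB9 are neighbours on chromosome 6 whose spans in the GENCODE annotation overlap by 568 bases. A RefSeq promoter window of PSMB9 starts at base 32853942, however, past the GENCODE end of PSMB8 at base 32844703. PSME1 and PSME2 lie 4394 bases apart on chromosome 14.

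Other interferon response genes did not all have the order of PSMB8. HLA-B, an antigen presentation molecule, had 7.69, 33.7 and 13.4 CPM in the libraries labelled day 0, 2 and 6, and IRF1, an interferon response factor, had 2.22, 5.96 and 2.37 CPM. TAP1, the peptide transporter whose gene neighbours PSMB9, had 2, 16 and 4 UMIs. These 3 genes were highest in labelled day 2. ISG15, IFIT1 and IFI6, which are induced by type I interferon, had 44.2, 1.65 and 4.61 CPM in labelled day 2, against 47.4, 2.26 and 5.93 CPM in labelled day 0. B2M, a subunit of the class I molecule, had 67.0, 97.6 and 69.4 CPM, and MX1 had 0.353, 1.84 and 2.88 CPM. All 4 immune cell markers were under 1 CPM in every library.

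**Figure D2:**
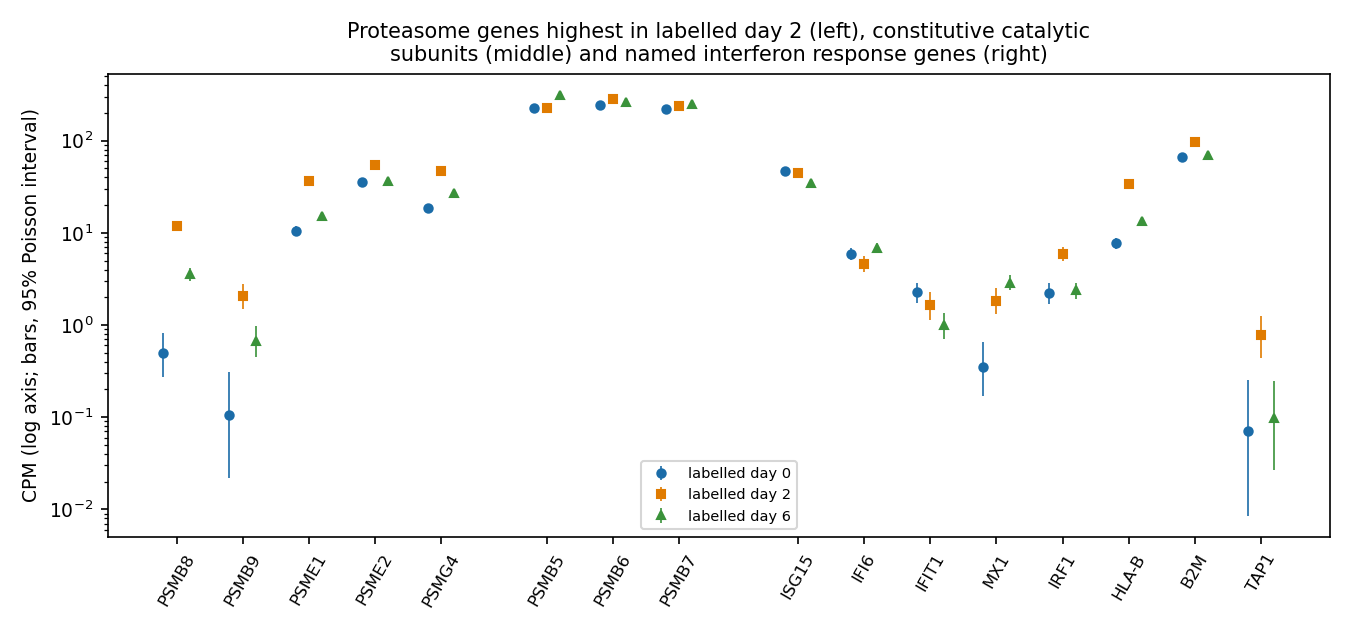
Levels in CPM (log axis) in the libraries labelled day 0, 2 and 6, with exact Poisson 95% intervals, for proteasome genes highest in labelled day 2 (left), the constitutive catalytic subunits (middle) and 8 interferon response genes (right). PSMB8, PSMB9, PSME1, HLA-B, IRF1 and TAP1 peak in labelled day 2, whereas PSMB6 and ISG15 span little.

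The regulatory ATPases, PSMC1 to PSMC6, form the ring that unfolds substrates. Their sum was 300.0, 398 and 376 CPM, lowest in labelled day 0. PSMC4 had 30.8, 59.1 and 54.6 CPM, which put labelled day 2 at 1.91 times (1.75 to 2.09) and labelled day 6 at 1.77 times (1.64 to 1.92) labelled day 0. PSMC2 had 56.0, 90.5 and 80.0 CPM, with 1.62 times (1.51 to 1.73) as much in labelled day 2 as in labelled day 0. PSMC3 and PSMC5 had the lowest level in labelled day 0 too, and the highest in labelled day 6, with 42.2, 50.6 and 54.5 CPM for PSMC3 and 84.9, 105 and 115 CPM for PSMC5. PSMC6 had 72.0, 84.7 and 62.2 CPM and was lowest in labelled day 6. PSMC1 was highest in labelled day 0, with 14.1, 8.97 and 9.64 CPM, and passed the 10 CPM minimum through the library labelled day 0 alone. Its ratio of day 2 over day 0 was 0.634 (0.530 to 0.756), but 0.779 among cells with 5% to 25% mitochondrial UMIs and 0.228 among cells under 5%. No interval was computed for the ratios within these cells. Of its annotated exon bases, 82.1% overlap another gene, mainly NRDE2 on the opposite strand, and 46.8% of the 50-base sequences at its 3' ends also occur in a copy, PSMC1P1. Reads of PSMC1 and NRDE2 in the overlap cannot be told apart where the counting did not use strand, which is not given in the sources used here. Strand does not separate reads within the sequences that PSMC1 shares with PSMC1P1.

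The other subunits of the regulatory particle differed little. The 11 non-ATPase subunits summed to 1207, 1300 and 1260 CPM, and none of them reached 1.5-fold in any of the 3 comparisons. Of all genes, 59.5% stayed within 1.5-fold in labelled day 2 over day 0, 65.9% in day 6 over day 2 and 62.5% in day 6 over day 0. In all 3 comparisons together 39.5% of all genes did so. PSMD4, a ubiquitin receptor, had 167, 184 and 201 CPM. PSMD11, a subunit of the lid known for promoting proteasome assembly in human embryonic stem cells, had 134, 161 and 169 CPM. PSMD14, the enzyme that cuts ubiquitin chains off, had 148, 147 and 121 CPM. PSMD3, another lid subunit, came closest to 1.5-fold, with 1.48 times (1.39 to 1.58) as much in labelled day 2 as in labelled day 0. PSMD1 and PSMD2, the scaffolds of the base, had 280, 252 and 226 CPM and 104, 97.3 and 124 CPM.

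The 3 assembly factors of the base likewise stayed within 1.5-fold. They summed to 202, 159 and 162 CPM, most of it from PSMD10. PSMD10, also known as gankyrin, had 142, 105 and 103 CPM. In labelled day 2 it was at 0.743 times (0.705 to 0.783) and in labelled day 6 at 0.724 times (0.694 to 0.757) labelled day 0. PSMD9 had 15.9, 12.1 and 16.1 CPM, and 47.7% of its 3' end sequences occur in other annotated genes. PSMD5 had 44.7, 41.5 and 42.9 CPM. Among cells under 5% mitochondrial UMIs its direction turned, with 1.61 times as much in labelled day 2 and 1.76 times in labelled day 6 as in labelled day 0.

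The remaining activators and the inhibitor had orders of their own. PSME3, a nuclear activator, had 69.9, 106 and 125 CPM, with 1.79 times (1.70 to 1.88) as much in labelled day 6 as in labelled day 0. Its ratio of labelled day 2 over day 0 was 1.52 (1.43 to 1.61), and it fell short of 1.5-fold under 5 of the alternatives, the lowest being 1.31 among cells with 5% to 25% mitochondrial UMIs. PSMF1, an inhibitor of the core, had 33.1, 43.8 and 52.1 CPM and was likewise highest in labelled day 6. PSME4, an activator known for acting on acetylated histones, had 83.6, 81.4 and 77.6 CPM, with the highest library at 1.08 times the lowest. Among cells under 5% mitochondrial UMIs it was at 1.41 times labelled day 0 in labelled day 6. Of the core assembly factors, PSMG1 had 21.2, 30.8 and 25.2 CPM, its partner PSMG2 had 63.4, 78.8 and 60.4 CPM, and PSMG3, the partner of PSMG4, had 45.8, 52.7 and 53.1 CPM. For PSMG3 labelled day 6 and day 2 did not differ beyond counting error, at a ratio of 1.01 (0.937 to 1.08).

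Counted gene by gene, 8 of the 44 measured genes were at least 1.5-fold higher in labelled day 2 than in labelled day 0, against 20.1% of all genes, and 1 was at most 1/1.5 times as high, against 20.4%. The 8 were PSMB8, PSME1, PSMG4, PSMC4, PSMA5, PSMC2, PSME3 and PSME2, and the 1 was PSMC1. The median log2 ratio was 0.19 for the core particle and 0.15 for the regulatory particle, against 0.01 for all genes. The activators had a median of 0.60 and the core assembly factors of 0.42, over 4 genes each. The upward count is near the background share, and the downward count is below it. Mitochondrial content differed between these libraries as well: 49.0% of the cells of labelled day 2 had under 5% mitochondrial UMIs, against 20.2% in labelled day 0. With the minimum set at 50 CPM, 5 of 35 genes were 1.5-fold higher, against 16.9% of all genes, and 0 lower, against 20.2%. Within the cells under 5% the core median was 0.05, and within the cells from 5% to 25% it was 0.07. At 10% mitochondrial UMIs or less the core median was 0.32. The medians of all genes within these cells were -0.032, -0.008 and -0.015 in the same order. The part of mitochondrial content in this comparison was not tested.

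In the library labelled day 6 against labelled day 2, 0 of the 44 genes were at least 1.5-fold higher, against 20.7% of all genes. At most 1/1.5 times as high were 4 genes, against 13.4%, and these were PSMB8, PSME1, PSMG4 and PSMA5. Both counts are below the background. With the minimum at 50 CPM, 1 of 35 genes was that low, against 11.2%. Just short of the limit were PSMA4 at 0.667 and PSME2 at 0.673. The medians were -0.21 for the core particle and -0.06 for the regulatory particle, against 0.12 for all genes. Within the cells under 5% mitochondrial UMIs the regulatory median was 0.075. The highest ratios in this comparison were those of PSMB5 at 1.37, PSMD9 at 1.33, PSMA8 at 1.30 (1.23 to 1.38) and PSMD2 at 1.28.

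In the library labelled day 6 against labelled day 0, 4 of the 44 genes were at least 1.5-fold higher, against 23.2% of all genes, namely PSMB8, PSME3, PSMC4 and PSMF1. PSMA1 and PSMA4 were at most 1/1.5 times as high, 2 genes against 14.4%. Both counts are again below the background. PSMB8 was at 7.16 times (4.13 to 13.4) labelled day 0, and PSMF1 at 1.57 times (1.46 to 1.70). The medians were 0.09 for the core particle and 0.15 for the regulatory particle, against 0.12 for all genes. The 3 comparisons share libraries, so their values are not independent of each other.

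**Figure D3:**
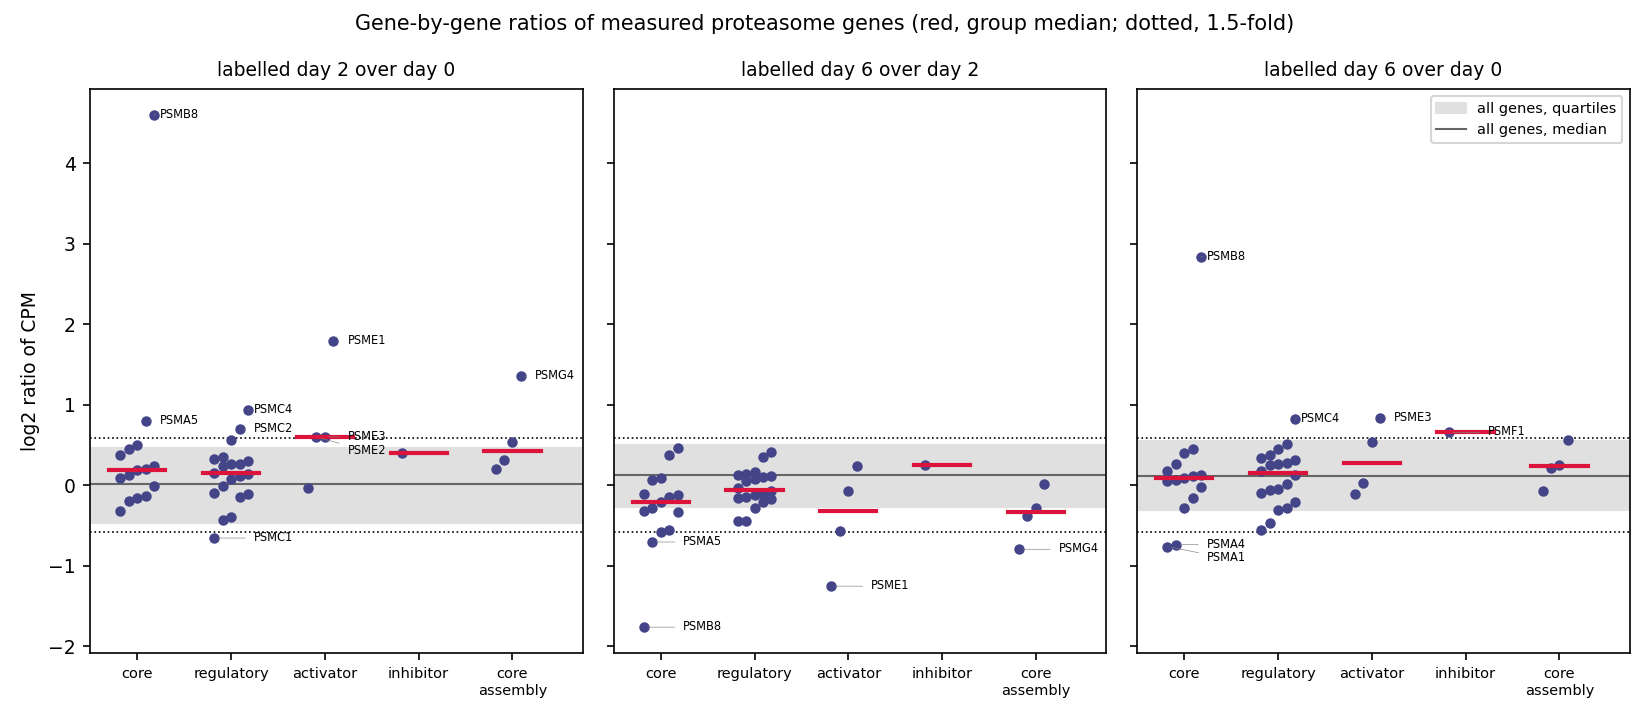
Gene-by-gene log2 ratios of CPM of the 44 measured proteasome genes in the 3 comparisons, by group; red bars are group medians, the grey band spans the quartiles of all 10574 genes, and dotted lines mark 1.5-fold. Most genes lie within the band, and PSMB8 lies farthest out in each comparison.

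Genes that work with the proteasome but lie outside the symbol rule were counted in 4 lists. Of 12 proteasome partners 11 were measured, and 3 were at least 1.5-fold higher in labelled day 2 than in labelled day 0, against 20.1% of all genes, with 0 lower, against 20.4%. The 3 were KIAA0368 (also called ECPAS, an adaptor of the proteasome) with 77.2 CPM against 38.5, TXNL1 with 91.1 against 57.6 and ZFAND5 with 104 against 67.9 CPM. POMP, the maturation factor of the core, had 292, 316 and 306 CPM in the libraries labelled day 0, 2 and 6. SHFM1 (also called SEM1), a small lid subunit, had 320, 222 and 240 CPM. Of the 6 genes for transcription of the proteasome genes, 5 were measured. NFE2L1, the factor that raises proteasome genes when proteasome activity falls, had 40.3, 63.1 and 85.3 CPM, and labelled day 6 was at 2.12 times labelled day 0. The other 4 measured genes of that list stayed within 1.5-fold in all 3 comparisons, against 39.5% of all genes. FOXO4, the gene of that list below the 10 CPM minimum, had 0.882, 3.68 and 5.04 CPM.

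Among the 8 shuttles and segregase genes, VCP, the segregase, had 246, 293 and 343 CPM and was highest in labelled day 6. Among the 6 genes of ubiquitin and its activation, the activating enzymes differed in opposite directions: UBA1 had 166, 218 and 288 CPM, and UBA6 had 54.1, 31.9 and 26.9 CPM. The ubiquitin gene UBB was at 0.546 times the level of labelled day 2 in labelled day 6.

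Other large complexes of every cell gave a frame for these medians. In labelled day 2 over day 0 the median log2 ratio was 0.22 for all 44 proteasome genes, 0.38 for 72 mitochondrial ribosomal protein genes, 0.41 for the 8 CCT chaperonin genes and 0.01 for 82 cytosolic ribosomal protein genes. In labelled day 6 over day 2 it was -0.12, -0.21, -0.31 and -0.24 in the same order of families. In labelled day 6 over day 0 it was 0.12, 0.14, 0.06 and -0.21. The proteasome medians thus lay between those of the other families in the first comparison and above all 3 of them in the second.

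Within each library, proteasome levels differed more by the mitochondrial share of the cell than between libraries. Cells with under 5% mitochondrial UMIs had summed proteasome levels of 6955, 7018 and 6845 CPM in the libraries labelled day 0, 2 and 6, against 4813, 4998 and 4905 CPM in cells from 5% to 25%. The ratios were 1.44, 1.40 and 1.40, and 1.27, 1.22 and 1.23 when mitochondrially encoded genes were left out of the totals. Of the 44 genes, 39, 40 and 42 were higher in the cells under 5%, against 52.3%, 52.2% and 53.9% of all genes. In all 3 libraries 38 were higher, a joint count for which no share of all genes was computed. The cells under 5% also held fewer UMIs, with medians of 2768, 3170 and 2479.5 against 11763, 5904 and 8794.5, and the part of depth in the ratio was not tested.

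The core particle and the regulatory particle took part about equally. The core ratios were 1.47, 1.44 and 1.40 and the regulatory ratios 1.43, 1.36 and 1.39 in the libraries labelled day 0, 2 and 6. The activator ratios were lower, at 1.12, 1.27 and 1.32. With mitochondrially encoded genes left out of the totals, the activator ratio in labelled day 0 was 0.989 (0.892 to 1.09). The core and regulatory ratios there were 1.30 and 1.26. PSMG1 and PSMG2, which form an assembly factor together, were among the highest, with ratios of 1.84, 1.48 and 1.90 for PSMG1 and 1.77, 1.80 and 1.61 for PSMG2. PSMC1 and PSMD7 were lower in the cells under 5% in all 3 libraries, with ratios of 0.524, 0.154 and 0.358 for PSMC1 and 0.742, 0.572 and 0.472 for PSMD7, a lid subunit that pairs with PSMD14. The interval of PSMD7 in labelled day 0 included 1. Other annotated genes, mainly one on the opposite strand, overlap 82.1% of the exon bases of PSMC1 and 42.4% of those of PSMD7. PSME4 was at 0.645 and 0.673 in labelled day 0 and 2 and at 1.001 in labelled day 6. PSMB8 in labelled day 2 was at 1.62 (1.24 to 2.12), so its UMIs were found in both kinds of cell.

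**Figure D4:**
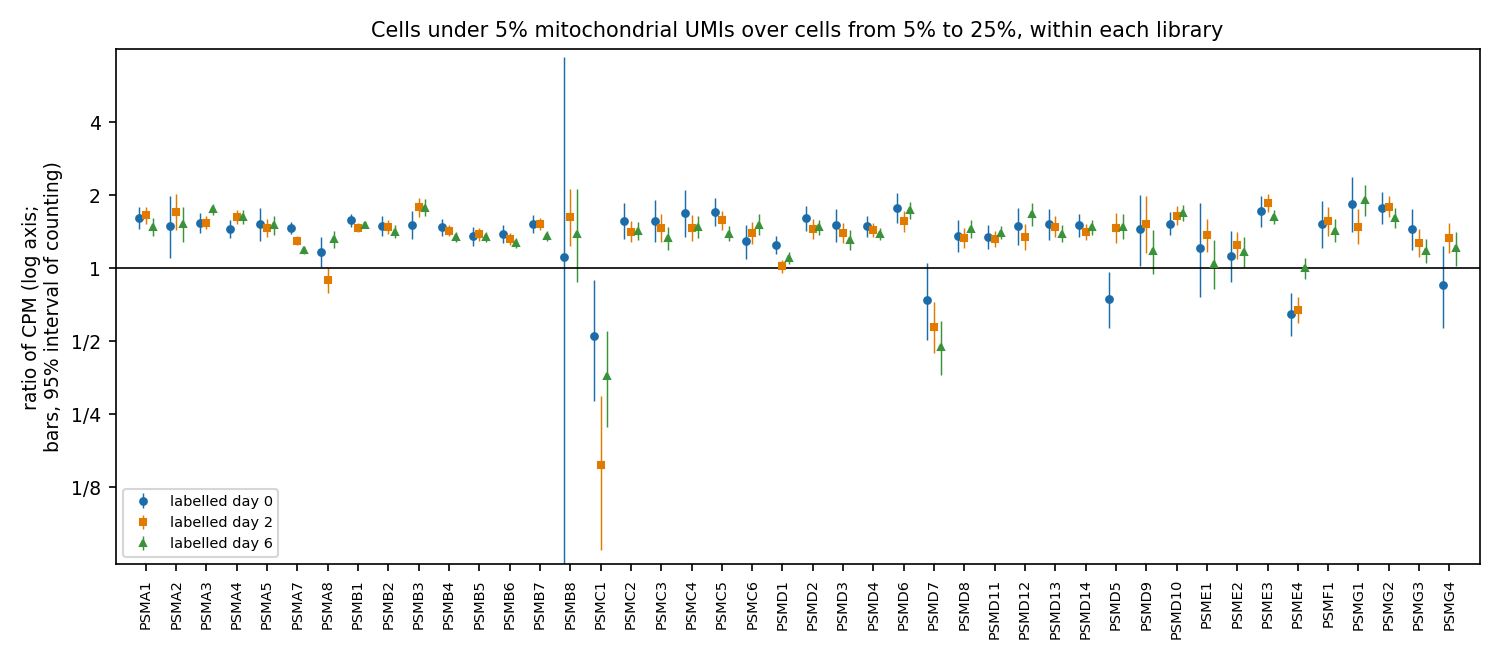
Ratio of CPM (log axis) in cells under 5% mitochondrial UMIs over cells from 5% to 25%, for each of the 44 measured proteasome genes in the libraries labelled day 0, 2 and 6, with exact 95% intervals of counting. Above 1 in all 3 libraries lie 38 genes, a joint count with no share of all genes beside it. PSMC1 and PSMD7 lie below 1 in each library. The interval of PSMB8 in labelled day 0 runs past the lower edge of the axis.

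Cells with the highest share of mitosis gene UMIs, the top 10% of each library, were compared with the rest. Their summed proteasome levels were 5010, 5969 and 5938 CPM, against 4945, 5467 and 5125 CPM in the rest, in the libraries labelled day 0, 2 and 6. The ratios were 1.01, 1.09 and 1.16, and 0.991, 1.01 (0.990 to 1.03) and 1.10 when mitochondrially encoded genes were left out of the totals. The mitotic cells were shallower, with median UMIs of 7957, 3275.5 and 2965.5 against 8847, 3931 and 4725.5. Of the 44 genes, 23, 35 and 41 were higher in the mitotic cells, against 47.7%, 53.2% and 53.7% of all genes. Upward, 0 genes reached 1.5-fold in any library, against 3.75%, 5.91% and 2.98% of all genes. At most 1/1.5 times as high were 2, 2 and 0 genes, against 6.02%, 11.7% and 6.21% of all genes. PSMA8 was among these lower genes, at 0.579 and 0.568 in labelled day 0 and 2, and was at 1.01 in labelled day 6. Split at the median of UMIs per cell, the deeper cells had 0.934, 0.835 and 0.794 times the proteasome level of the shallower ones. With mitochondrially encoded genes left out of the totals these ratios were 0.953, 0.893 and 0.855. Of the 44 genes, 8, 5 and 5 were higher in the deeper cells, against 53.8%, 52.1% and 51.2% of all genes. In all 3 libraries 34 were lower, a joint count for which no share of all genes was computed.

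Within the libraries that held POU5F1, its detection went with differences of opposite sign, a contrast between libraries that was not tested. In labelled day 2 the cells with a POU5F1 UMI had 1.10 times (1.05 to 1.15) the proteasome level of the 138 cells without one. In labelled day 6 the cells with a POU5F1 UMI had 0.907 times (0.895 to 0.920) the level of those without one. With mitochondrially encoded genes left out of the totals these ratios were 1.10 (1.05 to 1.15) and 0.930 (0.917 to 0.942). The cells with a UMI were deeper in both, with median UMIs of 4090 against 1548 in labelled day 2 and of 7015.5 against 1954.5 in labelled day 6, and the part of depth was not tested. For NANOG, another pluripotency factor, the 758 cells of labelled day 2 with a UMI had 0.959 times (0.948 to 0.970) the level of the 1661 cells without one. With mitochondrially encoded genes left out of the totals this ratio was 0.988 (0.977 to 0.9999). The cells with a NANOG UMI were deeper too, with median UMIs of 8871.5 against 2883. In labelled day 6 only 35 cells had a NANOG UMI, with 0.953 times (0.927 to 0.980) the level of the other cells. Their median UMIs were 26095 against 4388. The part of depth was again not tested.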

How the data were processed

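Single H9 cells were measured in 3 droplet libraries, 1 each labelled day 0, 2 and 6. The authors deposited 1 matrix per library, holding raw counts by barcode and gene, taken here as UMI counts because the labels' protocols name inDrop with TruDrop. STAR and hg38 are named per the submitters' processing notes; no source used here gives the annotation, the barcode filter, the strand setting or the collapsing of duplicates. Every deposited barcode had at least 100 genes. A deeper library gives narrower intervals, and the library labelled day 2 was the shallowest.

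The proteasome genes and all gene lists were chosen with earlier results of these data known. Cells with at least 1000 UMIs, 500 genes and at most 25% mitochondrial UMIs were kept, and doublets were not removed. Each gene's counts were pooled across kept cells and divided by their library total to give counts per 1000000 (CPM). Levels carry exact Poisson 95% intervals and ratios exact conditional binomial 95% intervals. No p-value is given, since cells are not replicates. Counts at 1.5-fold took in genes reaching 10 CPM in any library. Named with ratios were the 4 highest and the 4 lowest measured members of each comparison by the interval bound nearest to 1, and named with levels a fixed set of members by role. Other members were named after their values were seen, as were the promoter windows printed. KIAA0368, SHFM1 and UFD1L were matched by their older symbols, T stood for TBXT, and SOX10 was not found. Some listed genes are not reported here. Overlaps and shared sequences come from GENCODE on GRCh38, and promoter windows from RefSeq.

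Alternatives were TMM factors from edgeR 4.0.16 in R 4.3.3, median-of-ratios size factors, mean CPM per cell, totals that leave out ribosomal protein and mitochondrial genes, other CPM minimums, UMI minimums and mitochondrial limits, and leaving out shared barcodes. The calculations were run in Python 3.11.15 with scipy 1.17.1 and tested on simulated data.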

Additional observations from a re-analysis of the deposited data

Results flagged for a closer look

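Barcodes outside the kept cells also held proteasome UMIs, a signal in data that the comparisons do not use. The barcodes left out had 4064 CPM of proteasome genes in the library labelled day 0, 3306 CPM in labelled day 2 and 4181 CPM in labelled day 6, against 4951, 5502 and 5177 CPM in the kept cells. Their median mitochondrial shares were 20.6%, 31.6% and 19.8%. With mitochondrially encoded genes left out of the totals, the left-out barcodes had 1.02, 0.838 and 1.03 times the level of the kept cells.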

How the results depend on the processing

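No paired analysis was possible because each labelled day has 1 library. Of the 132 values recomputed for the group medians and the counts at 1.5-fold, 100 stayed within the counting interval or within 1.5 times the count, and 32 moved. The restriction to cells under 5% mitochondrial UMIs was chosen after seeing the data.

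For labelled day 2 over day 0, the core median of 0.19 became 0.12 with TMM factors, 0.11 with median-of-ratios factors, 0.34 with mean CPM per cell, 0.32 at 10% mitochondrial UMIs or less, 0.069 from 5% to 25% and 0.053 under 5%. The regulatory median of 0.15 became 0.067 with median-of-ratios factors, 0.26 with mean CPM per cell, 0.25 at a minimum of 50 CPM, 0.25 at 10% mitochondrial UMIs or less and 0.015 under 5%. At a minimum of 50 CPM, 5 of 35 genes were higher and 0 lower. There were 2 lower without a minimum and 0 at 3000 UMIs per cell.

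For labelled day 6 over day 2, the core median of -0.21 became -0.32 at 10% mitochondrial UMIs or less and -0.13 from 5% to 25%, and the regulatory median of -0.06 became 0.075 under 5%. There was 1 higher gene with mean CPM per cell, without a minimum, at 10% mitochondrial UMIs or less and under 5%. There were 7 lower without mitochondrial and ribosomal genes, 7 at 10% mitochondrial UMIs or less and 1 at 50 CPM.

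For labelled day 6 over day 0, the core median of 0.09 became 0.27 with mean CPM per cell. The regulatory median of 0.15 became 0.25 with mean CPM per cell, 0.26 at 50 CPM and 0.24 at 10% mitochondrial UMIs or less. With mean CPM per cell 7 genes were higher and 1 lower, and under 5% mitochondrial UMIs 4 were lower. The causes of these shifts were not tested.

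Of 229 recomputed ratios of named genes past 1.5-fold, 15 fell short of it and 0 reversed. These counts include the alternatives with another CPM minimum, which cannot alter the ratio of a single gene. No interval was computed for the recomputed ratios. Of the 21 ratios behind them, 5 moved by over 1.5 times, all of PSMB8, PSMB9 and PSMC1: for labelled day 6 over day 0, PSMB8 reached 14.6 at 10% mitochondrial UMIs or less. Of 60 ratios of named genes short of 1.5-fold, 4 moved by over 1.5 times, each under 5% mitochondrial UMIs: PSMD5 in labelled day 2 and in day 6 over day 0, PSME4 in day 6 over day 0, and PSMC1 in day 6 over day 2, which reached 2.17. With 1 library per day, no spread between cultures is known.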

Other observations

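The deposited gene lists also hold 5 symbols of antisense RNAs named after proteasome genes. PSMA3-AS1 had 15.6, 14.5 and 23.9 CPM in the libraries labelled day 0, 2 and 6, and PSMG3-AS1 had 2.47, 3.68 and 5.82 CPM. Both were highest in labelled day 6. PSMD5-AS1 had 7.34, 4.27 and 6.81 CPM and PSMD6-AS2 had 4.16, 2.04 and 4.07 CPM, both lowest in labelled day 2. PSMB8-AS1 had 8 UMIs in labelled day 2 and 0 in the other libraries, so it was seen where PSMB8 was highest. Whether these UMIs come from the antisense RNA or from its partner gene cannot be told without the strand setting of the counting.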
